A study of Mus musculus with 16 samples.

Results

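The 8 mouse brain tumours of the series were split by their Gpr17 signal into 4 Gpr17-high and 4 Gpr17-low tumours, and the groups were compared across all genes. The tumours came from a mouse model in which tumour suppressor genes were deleted with an inducible Cre recombinase, and the study's title calls them high-grade glioma. Each tumour was taken when its mouse showed neurological symptoms, and each is 1 array of total RNA from whole tissue. The labels number the tumours as independent tissues, the design text counts 10 of them, and 8 are analysed here. All 8 share the model, and which genes were deleted, whether 2 tumours came from 1 mouse, and the age, sex and brain region are not stated in the labels used here. The series holds 16 arrays, of which 5 dorsal and 3 ventral brain samples from control mice serve below only as a background level, at corresponding regions per the design text. Where 2 tissues are not from separate mice, a p-value measures a spread that may be technical in part.

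Gpr17 encodes a G protein-coupled receptor of the oligodendrocyte lineage. In the brain this lineage runs from cycling progenitors through committed precursors and newly formed oligodendrocytes to myelinating cells. GPR17 marks the committed, premyelinating stage and is lost as myelin genes come on, and sustained receptor activity is known to hold cells back from maturing. In bulk tissue, fewer cells of a type and less RNA per cell cannot be told apart.

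The groups were chosen by the signal of the only Gpr17 probe in the authors' deposited log2 table. That signal was 10.56, 12.19, 12.77 and 11.75 in tumours 3, 6, 7 and 10, which are the Gpr17-high group at 10 or more. In tumours 2, 5, 8 and 9, the Gpr17-low group, it was 9.11, 6.80, 6.70 and 7.79. Tumour 3 lay just inside the threshold and tumour 2 just outside it. The controls lay between 7.80 and 8.67 dorsally and between 8.64 and 9.07 ventrally, so each Gpr17-high tumour lay above every control. Tumours 5, 8 and 9 lay below every control, tumour 9 only just, and tumour 2 lay just above every control. These values chose the groups and are not tested.

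**Figure D1:**
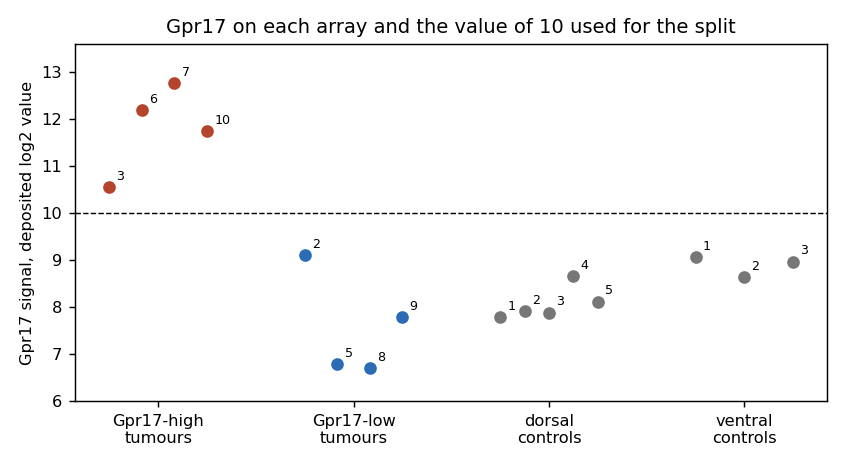
Deposited log2 signal of Gpr17 (vertical axis) on each of the 16 arrays, grouped along the horizontal axis; the numbers are the replicate numbers of the labels and the dashed line is the value of 10 that split the tumours. Tumours 3, 6, 7 and 10 lie between 10.56 and 12.77, above tumours 2, 5, 8 and 9 and above the 8 controls.

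Some libraries stood apart from the rest. Across the 10886 genes tested, tumours 8 and 9 correlated at r = 0.9815 and tumours 6 and 7 at 0.9582, while every other pair of tumours lay between 0.8629 and 0.9427. Genes are not independent replicates, and each alike pair lies within 1 group and on 1 chip, so the overall counts, the leading differences and the list medians are also given with each pair averaged to 1 value. No label names a chip, and arrays whose codes share the same leading number were taken as 1 chip. The first principal component of the tumours held 32.1% of the variance and set tumours 8 and 9 (-54.1 and -64.5) apart from the others. Tumour 10 carried pituitary hormone transcripts. Its log2 signal was 14.59 for growth hormone (Gh), 14.28 for prolactin (Prl), 13.98 for Pomc, 10.48 for Cga and 7.30 for the receptor gene Ghrhr, all chosen after their values were seen. Tumour 7 carried Gh at 8.34 and Prl at 7.95, and none of these 5 genes was detected in a Gpr17-low tumour. List medians without tumour 10, and counts of apart genes that move without it, are therefore given. Without tumour 10 the shares of all genes apart were 5.66% higher and 4.95% lower. Between 18231 and 20430 of 45281 probes were detected in a tumour, which is 40.3% to 45.1%.

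After adjustment over all 10886 genes, 0 genes (0%) passed an adjusted p under 0.05 by limma, and the smallest adjusted p was 0.109. With the alike pairs averaged the count was also 0 and the smallest adjusted p 0.914. At an unadjusted p under 0.05 there were 1332 genes (12.2%), 742 of them higher (6.82%) and 590 lower (5.42%) in Gpr17-high tumours. With the pairs averaged 551 genes (5.06%) had such a p, 344 higher (3.16%) and 207 lower (1.9%). At 2-fold or more with no test there were 693 genes (6.37%). The 4 Gpr17-high tumours all lay above the 4 Gpr17-low tumours for 427 genes (3.92%) and all below for 328 (3.01%). These 755 genes, 6.94% of those tested, are called apart below, and the shares of 3.92% and 3.01% are the background against which counts of apart genes in a list are read. With median scaling in place of quantile normalization the median of all genes moved from 0.009 to -0.101, and 211 genes were apart higher and 508 lower. The share of apart genes that were higher was thus 56.6% with quantile normalization and 29.3% with median scaling, and differences near 0 carry no direction. A model that borrows its estimate of the spread from all 16 arrays called 488 genes (4.48%), 301 higher (2.77%) and 187 lower (1.72%). Its spread is pooled over tumours and controls and is not that of the tumours alone, and the alike pairs count as separate tumours in it.

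Since 0 genes passed, the differences that follow are described by their values and by whether the groups overlap. The leading genes were chosen after their values were seen: groups apart, the same sign within each of the 3 chips, detection on every array of the higher group, an unadjusted p under 0.05, and under 0.01 with the pairs averaged. These conditions were met by 55 genes in the higher and 36 in the lower direction, and the 12 with the largest difference each way are described. Their adjusted p lay between 0.109 and 0.252 by limma. These conditions fix their direction, so their stable sign supports nothing.

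The largest difference was that of Enpp6, a choline phosphodiesterase that marks oligodendrocytes as they begin to form. Its log2 signal was 9.52, 10.81, 12.45 and 7.65 in tumours 3, 6, 7 and 10, and 6.88, 4.41, 4.85 and 5.05 in tumours 2, 5, 8 and 9. The groups did not overlap, but tumours 10 and 2 came close to each other. The means of 10.11 ± 2.03 (SD, n = 4) and 5.30 ± 1.09 (SD, n = 4) differ by 4.81 ± 0.96 (SE) on the log2 scale, a 28.1-fold difference in signal (adjusted p = 0.252). With the pairs averaged the log2 difference was 4.19. Dorsal controls had a mean of 6.55 and ventral controls of 7.28, so both control means lay between the means of the groups.

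Cnp, the gene of a myelin phosphodiesterase that is switched on before compact myelin forms, measured 11.17, 11.81, 12.30 and 10.30 in the Gpr17-high tumours. The Gpr17-low tumours had 9.07, 8.92, 8.27 and 9.30. The difference was 2.50 ± 0.43 (SE) on the log2 scale (adjusted p = 0.23), and 2.25 with the pairs averaged. A second probe of Cnp gave 1.72 ± 0.42 (SE), with the groups again apart.

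Plxnb3, a plexin receptor for semaphorins, read 7.03, 9.33, 10.43 and 8.66 in tumours 3, 6, 7 and 10. In tumours 2, 5, 8 and 9 it read 5.19, 4.96, 4.79 and 4.62. That is a log2 difference of 3.97 ± 0.62 (SE), 15.7-fold, with an adjusted p of 0.23, and 3.57 with the pairs averaged. Srpk3, a kinase of splicing factors known best from muscle, showed 6.64, 8.30, 9.55 and 8.27 against 5.51, 4.66, 5.09 and 4.55. Its log2 difference was 3.24 ± 0.55 (SE), 9.42-fold, and 2.95 with the pairs averaged. Both genes placed tumour 7 highest and tumour 3 lowest among the Gpr17-high tumours, and both were below the controls in the Gpr17-low tumours (controls 5.75 to 7.08 for Plxnb3 and 6.12 to 6.95 for Srpk3). With Gpr17 as a continuous covariate over the 8 tumours, in which the alike pairs count as separate tumours, both passed at an adjusted p of 0.0393, among 6 genes (0.0551% of those tested). The others were Lgi3 (adjusted p = 0.0075), a secreted protein of neurons and oligodendrocytes, Shroom1, Slitrk4 and Sertad4 (0.0393 each). Lgi3 measured 8.55, 10.50, 11.10 and 9.51 against 8.36, 5.96, 6.32 and 6.51, and differed by 0.78 ± 0.06 (SE) log2 units for each log2 unit of Gpr17. The remaining slopes were 0.90 ± 0.10 for Plxnb3, 0.75 ± 0.08 for Srpk3, 0.59 ± 0.07 for Shroom1, -0.34 ± 0.04 for Slitrk4 and -0.37 ± 0.04 for Sertad4 (SE). The covariate is the signal that chose the groups, and Plxnb3 and Srpk3 were picked for parting them. These p-values are therefore no separate support. Srpk3 was detected in 2 of 4 Gpr17-low tumours and so was tested only through the Gpr17-high group.

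Plxnb3 and Srpk3 are direct neighbours on chromosome X, with 0 protein-coding genes between them. Their 250 bases upstream of the start are shown because the 2 neighbours had the same pattern across the tumours. The sequences are from RefSeq, build GRCm38.p6, plus strand, at chrX:73756853-73757102 for Plxnb3 and chrX:73774155-73774404 for Srpk3. Capitals mark matches on either strand to CAGCTG, an E-box letter run that bHLH factors can bind, or to ACAAAG, a run that Sox factors can bind.
Plxnb3: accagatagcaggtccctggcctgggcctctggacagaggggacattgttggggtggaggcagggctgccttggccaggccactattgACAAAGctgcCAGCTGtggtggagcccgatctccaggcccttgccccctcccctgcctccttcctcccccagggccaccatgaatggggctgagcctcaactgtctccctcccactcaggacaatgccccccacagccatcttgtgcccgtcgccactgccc
Srpk3: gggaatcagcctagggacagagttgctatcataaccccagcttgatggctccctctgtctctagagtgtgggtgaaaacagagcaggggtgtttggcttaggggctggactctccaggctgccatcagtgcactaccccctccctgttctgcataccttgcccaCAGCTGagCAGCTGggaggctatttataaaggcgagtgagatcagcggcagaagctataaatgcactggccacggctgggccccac
The Plxnb3 window holds 1 E-box and 1 Sox run, and the Srpk3 window 2 E-box and 0 Sox runs. In windows of this length CAGCTG is found in 12.8% of all 27025 promoters, in 11.7% of those of tested genes, in 10.6% of those of genes apart higher and in 10.0% of those apart lower. ACAAAG is found in 16.5%, 11.8%, 13.4% and 12.6% of the same sets. A match is a run of letters and not evidence of a bound site.

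The other genes among the 12 highest differences have varied roles. Col18a1, a basement membrane collagen, measured 11.99, 11.42, 10.78 and 11.19 in the Gpr17-high and 10.05, 7.53, 8.53 and 7.53 in the Gpr17-low tumours, a log2 difference of 2.93 ± 0.56 (SE), and 2.89 with the pairs averaged. A second probe gave 1.59 ± 0.29. Every tumour lay above every control for this gene (control maximum 7.44). Chst3, which adds sulphate to chondroitin chains of the matrix, lay within 9.10 to 9.32 in the Gpr17-high tumours. It was 6.00 and 6.23 in tumours 2 and 5, and 8.07 and 8.17 in tumours 8 and 9, a log2 difference of 2.07 ± 0.51 (SE), and 2.38 with the pairs averaged. The tight Gpr17-high group (SD 0.10) contrasts with a Gpr17-low group with these 2 levels.

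Insc, an adaptor that orients the mitotic spindle, had a log2 difference of 2.24 ± 0.36 (SE) and was detected in 1 of 4 Gpr17-low tumours. Prkcq, a protein kinase C, had 2.22 ± 0.34, and Dhcr7, the enzyme of the last step of cholesterol synthesis, 1.95 ± 0.37. Dhcr7 measured 6.67, 7.76, 8.11 and 6.51 against 5.25, 5.16, 5.47 and 5.38, with the controls (5.72 to 6.79) above each Gpr17-low tumour. Rnd3, a small GTP-binding protein that lacks GTPase activity, had 1.89 ± 0.44. Of the ligands, Dhh, one of the hedgehog proteins, measured 6.79, 8.57, 6.77 and 6.64 against 5.08, 4.39, 5.13 and 5.80, so its log2 difference of 2.10 ± 0.47 leans on tumour 6. Of the transcription factors, Gsx1, a homeobox gene of ventral forebrain and interneuron progenitors, measured 8.32, 7.42, 7.39 and 8.04 against 5.82, 7.01, 4.85 and 5.47, a log2 difference of 2.00 ± 0.45. Tumour 5 came close to the Gpr17-high group for Gsx1. With the pairs averaged these 6 differences were 2.00 for Insc, 2.19 for Prkcq, 1.76 for Dhcr7, 1.74 for Rnd3, 2.06 for Dhh and 1.92 for Gsx1.

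Among the genes with lower signal in Gpr17-high tumours, Hspb6, a small heat shock protein, had the largest difference of the 12. It measured 10.23, 10.60, 10.50 and 10.41 in tumours 3, 6, 7 and 10, and 11.56, 12.64, 13.52 and 13.48 in tumours 2, 5, 8 and 9 (log2 difference -2.37 ± 0.41, SE, and -2.17 with the pairs averaged). All 8 tumours lay above every control (maximum 9.68). The smallest p belonged to Dedd2, a DNA-binding protein with a death effector domain. Dedd2 was 6.06, 6.52, 6.46 and 6.27 against 7.95, 8.26, 8.06 and 7.88, and differed by -1.71 ± 0.19 (SE; adjusted p = 0.109), and by -1.78 with the pairs averaged. The controls, at 6.81 to 7.42, lay in the gap between the groups. Ttc9b, a tetratricopeptide repeat protein, was 7.61, 6.99, 7.67 and 7.35 against 9.23, 9.02, 8.96 and 8.90 (-1.62 ± 0.21, adjusted p = 0.176). Its controls were higher than every tumour, at 9.33 to 11.63.

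Abcg1, which exports cholesterol from cells, measured 6.65, 6.92, 7.14 and 7.17 against 8.33, 8.11, 9.57 and 9.65, a log2 difference of -1.94 ± 0.38 (SE). Dhcr7 and Abcg1, a synthesis and an export gene of cholesterol, thus had opposite signs. Fgf13, an intracellular factor that binds sodium channels, measured 6.06, 5.44, 6.21 and 6.52 against 8.14, 7.18, 8.26 and 7.84 (-1.80 ± 0.31), and Kcnc4, a potassium channel, differed by -1.62 ± 0.42. For Fgf13 every tumour lay below every control (minimum 9.74). A second probe of Kcnc4 gave -0.43, and further probes of Fgf13 gave -0.61 and 0.01, all near background. The others were Atp13a4, a transport ATPase (-2.30 ± 0.57), Spon2, a secreted matrix protein (-1.72 ± 0.29), Tusc1, a candidate tumour suppressor (-1.67 ± 0.31), Sertad4 (-1.61 ± 0.26), the kinase Lrrk1 (-1.42 ± 0.30) and Pik3ip1, an inhibitor of PI3-kinase (-1.41 ± 0.25, SE). A second probe of Lrrk1 gave -0.45. With the pairs averaged the differences of these other 10 genes lay between -2.64 for Atp13a4 and -1.31 for Lrrk1.

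**Figure D2:**
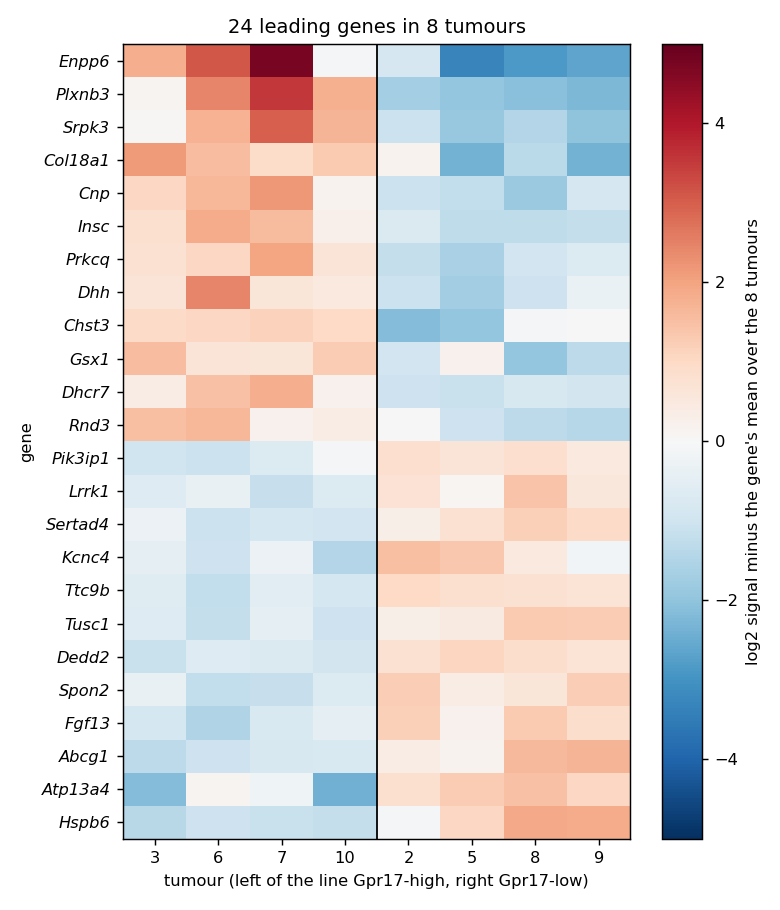
Log2 signal of the 24 leading genes (rows) in the 8 tumours (columns), shown as the difference from the gene's mean over the 8 tumours; red is above and blue below the mean, and the black line parts Gpr17-high from Gpr17-low tumours. In the upper 12 rows, chosen to be higher, tumour 7 has the highest Enpp6 at 12.45, and in the lowest row, Hspb6, tumours 8 and 9 have the highest values at 13.52 and 13.48.

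The gene lists follow the stages of the oligodendrocyte lineage first. Of 18 progenitor genes measured, 0 were apart in either direction and 0 had an unadjusted p under 0.05, with a median log2 difference of 0.35 beside 0.009 over all genes. Pdgfra, the growth factor receptor that defines progenitors, measured 10.87, 11.20, 11.20 and 12.11 in the Gpr17-high tumours. In tumours 2, 5, 8 and 9 it measured 10.28, 8.21, 12.82 and 12.48. Tumours 8 and 9, both Gpr17-low, thus had the highest Pdgfra, and tumour 5 a value near the dorsal controls (mean 7.88). Olig2, a lineage transcription factor, had a difference of -0.01 ± 0.70 (SE). Sox10, which acts at every stage of the lineage, measured 12.53, 12.39, 12.94 and 12.41 against 10.80, 8.47, 13.30 and 13.08. The proteoglycan gene Cspg4 showed 7.42, 8.74, 8.89 and 10.24 against 8.10, 6.12, 9.75 and 10.56. For Pdgfra, Sox10 and Cspg4 the Gpr17-low group held both the lowest tumour, tumour 5, and the highest, tumour 8 or 9. With the pairs averaged the list's median was 0.74, and without tumour 10 it was 0.17.

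Genes of committed and newly formed oligodendrocytes come next. Of 16 measured, 3 were apart higher, namely Enpp6, Zfp488 and Cnksr3, and 0 lower, beside 3.92% and 3.01% of all genes. The median log2 difference was 0.84, with 0.76 with the pairs averaged, 0.92 without tumour 10 and 0.76 with median scaling. Zfp488, a nuclear factor of oligodendrocyte differentiation, measured 5.61, 5.49, 5.84 and 5.05 against 4.70, 4.36, 4.59 and 4.57. It was detected in 0 Gpr17-low tumours and so was tested only through the group where it is high, and its signal was at least 1.59-fold higher there (adjusted p = 0.252), set on each Gpr17-low array against the lowest signal of detected probes, or its own where higher. Cnksr3, a signalling scaffold, measured 6.30, 6.64, 7.23 and 6.29 against 5.48, 5.98, 5.58 and 5.51, a log2 difference of 0.98 ± 0.26. The adjusted p of all 3 genes was 0.252, and whether this stage differs from the progenitor list was not tested.

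Other genes of this stage differed in some tumours and overlapped. Neu4, a sialidase of committed precursors, measured 9.17, 10.18 and 8.80 in tumours 6, 7 and 10 and between 4.73 and 5.94 in the Gpr17-low tumours. Tumour 3 had 5.19, inside the Gpr17-low range, so the log2 difference of 3.12 ± 0.94 (SE; adjusted p = 0.3) rests on 3 tumours. Capn6, a calpain-like protein without protease activity, had the same arrangement with 10.00, 10.27 and 9.42 in tumours 6, 7 and 10 and 5.32 in tumour 3. When tumour 3 was left out, Neu4 (4.17 ± 0.41, adjusted p = 0.0344), Capn6 (4.40 ± 0.31, 0.00983), Plxnb3 (4.58 ± 0.41, 0.0246) and Srpk3 (3.75 ± 0.39, 0.0421) passed. Tumour 3 was the lowest Gpr17-high tumour for each of these genes, and the alike pairs counted as separate tumours in this fit. Bmp4, a secreted ligand made by committed precursors, measured 9.29, 8.41, 11.08 and 9.24 against 9.21, 6.11, 6.74 and 7.24. Here tumour 2, the tumour just below the Gpr17 threshold, had the level of the Gpr17-high group. Tnr, a matrix glycoprotein, had a log2 difference of 1.20 ± 0.44, with tumour 3 at 4.81 inside the Gpr17-low range. Itpr2, a calcium channel of the endoplasmic reticulum, had 0.02 ± 0.61, with its highest value in tumour 5 (12.18). The kinase gene Fyn had -0.07 ± 0.71, and Bcas1, a marker of early myelinating cells, 0.69 ± 0.38.

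Of 11 genes of myelinating oligodendrocytes measured, Cnp and Opalin were apart higher and 0 lower. The median log2 difference of the list was 2.07, with 1.41 with the pairs averaged and 2.53 without tumour 10. Without tumour 10, Cldn11, a tight junction protein of myelin, was apart higher too, beside 5.66% of all genes. Mbp, a main protein of compact myelin, measured 10.88, 13.34, 14.02 and 9.97 against 11.86, 7.33, 9.90 and 8.66, so tumours 6 and 7 reached the control level (means 13.70 and 14.15) and tumours 3 and 10 did not. Mog, a protein of the outer myelin surface, measured 9.66 and 10.15 in tumours 6 and 7, 6.66 in tumour 2 and between 4.38 and 4.99 in the other 5. Mag, an adhesion protein of myelin, was 11.52 and 12.54 in tumours 6 and 7 and 8.97 and 6.49 in tumours 3 and 10. On these probes of Mbp, Mog and Mag the alike pair 6 and 7 stood highest. Other probes of Mbp gave 2.46, 2.07 and 0.04, and on the last of these tumours 6 and 7 had 7.40 and 7.59, inside the range of the other 6. The mean signal of the list minus that of the controls was 0.68 and 1.02 in tumours 6 and 7, -1.73 and -2.45 in tumours 3 and 10, and between -3.62 and -1.23 in Gpr17-low tumours. Whether myelin of surrounding brain took part was not tested. The mean of neuronal genes relative to controls, on the same scale, ranged from -5.40 to -3.30 in Gpr17-high and from -5.05 to -1.63 in Gpr17-low tumours.

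**Figure D3:**
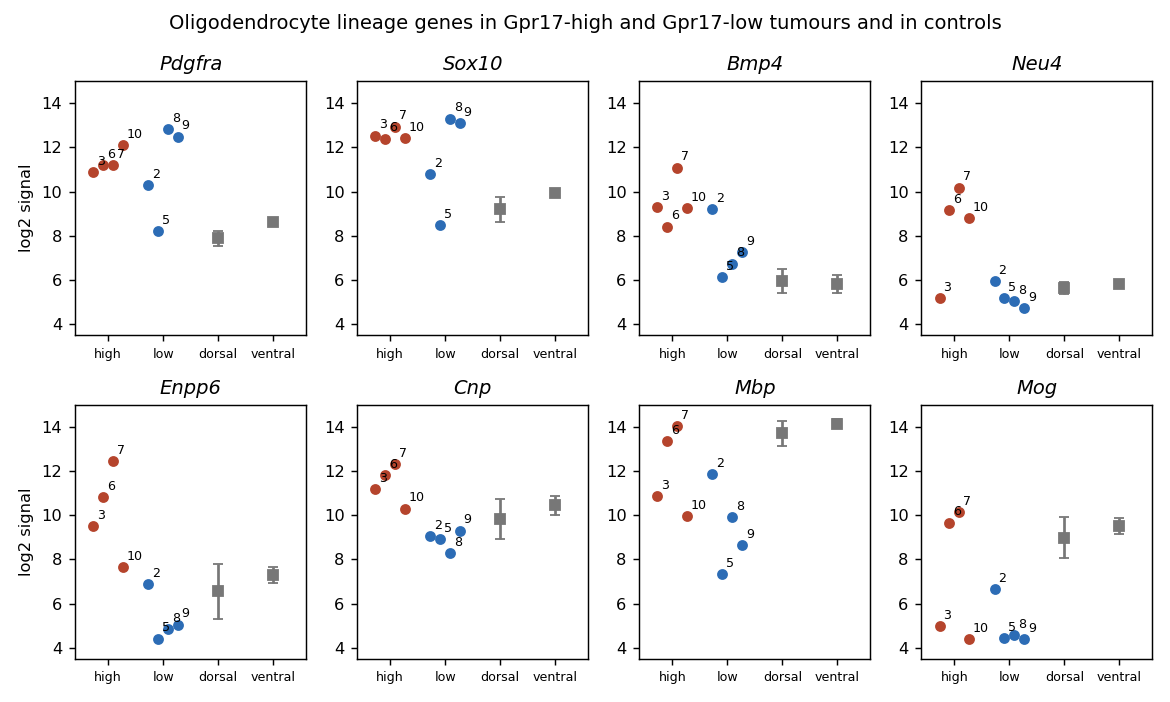
Log2 signal (vertical axis) of 8 oligodendrocyte lineage genes in Gpr17-high (red) and Gpr17-low (blue) tumours, with the tumour number beside each point, and the mean with SD of 5 dorsal and 3 ventral controls (grey squares with bars). Cnp and Enpp6 part the groups, Pdgfra and Sox10 place tumours 8 and 9 highest, and Mbp and Mog are high in tumours 6 and 7 (13.34 and 14.02 for Mbp).

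The receptor's own surroundings showed no common shift. Of 21 genes measured among related receptors, G proteins and effectors, 0 were apart higher and 1 lower, with a median of 0.08, which was -0.10 with the pairs averaged, 0.12 without tumour 10 and -0.06 with median scaling. The related receptor Cysltr1, for cysteinyl leukotrienes, stayed near background in all 8 tumours (4.44 to 5.19), and P2ry12, Cysltr2 and P2ry2 were detected in 0 tumours. P2ry1, a receptor for ADP, measured 8.41, 8.04, 7.48 and 7.82 against 6.86, 7.89, 6.85 and 6.47, and only tumour 5 overlapped (log2 difference 0.92 ± 0.34, SE). Gnai2, an inhibitory G protein subunit, had a difference of 0.01 ± 0.23, and Gnaq one of -0.03 ± 0.31. Rapgef3, an exchange factor activated by cyclic AMP, had 0.99 ± 0.39. Prkacb, a catalytic subunit of protein kinase A, was the gene apart lower, at 12.16, 12.24, 12.19 and 11.83 against 12.64, 12.27, 12.63 and 12.84 (-0.49 ± 0.20). Id2 and Id4, which restrain oligodendrocyte differentiation, had 0.70 ± 0.48 and 0.63 ± 0.83, and further probes of Id2 gave -0.24 and 0.01.

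Of 21 cell cycle genes measured, all 21 had a higher mean in Gpr17-high tumours, beside 50.9% of all genes. With median scaling it was 20 of 21, beside 40.1% of all genes, and genes of the cell cycle do not vary independently. All 11 genes of myelinating oligodendrocytes had a higher mean too. The mean of the cell cycle list relative to controls overlapped between the groups. It ranged from 2.49 to 3.59 in Gpr17-high and from 1.94 to 2.63 in Gpr17-low tumours. Of the 21, 3 were apart higher (Top2a, Aurkb and Cenpf) and 0 lower, beside 3.92% and 3.01% of all genes, and 0 passed. With median scaling Cenpf overlapped, and without tumour 10 Ccne1 was apart higher too. The median was 0.53, with 0.56 with the pairs averaged, 0.47 without tumour 10 and 0.40 with median scaling. Top2a, the topoisomerase of dividing cells, measured 10.45, 9.41, 9.12 and 9.57 against 8.43, 8.65, 7.73 and 7.86. Its log2 difference was 1.47 ± 0.34 (SE), and a second probe gave 0.85 ± 0.23 (SE). Aurkb, a mitotic kinase, measured 7.53, 7.24, 7.00 and 7.52 against 6.52, 6.25, 6.12 and 6.65 (0.94 ± 0.21). Every tumour lay above every control for both genes. The S-phase genes Tyms and Mcm3 had 1.59 ± 0.55 and 1.39 ± 0.47, with tumour 5 overlapping the Gpr17-high group in each and tumour 2 in Tyms, and Cdk1 had 0.54 ± 0.39. Ccnd1, the cyclin that links growth signals to the cell cycle, measured 14.19, 14.74, 14.23 and 13.42 against 12.45, 11.97, 12.31 and 12.33. The difference of 1.88 ± 0.29 (SE; adjusted p = 0.23) was 1.79 with the pairs averaged, and the controls reached 9.89. Of the 12 RAS-MAPK output genes measured, Ccnd1 was the only one apart, though with median scaling Spred1 was apart lower too. The median of these 12 genes was -0.06, with 0.20 with the pairs averaged and 0.09 without tumour 10. Ccnd1 lies on chromosome 7 with 5 protein-coding genes between it and Fadd, an adaptor of death receptors whose direct neighbour is Ppfia1. Fadd measured 8.19, 10.11, 10.03 and 8.19 against 6.81, 7.82, 5.70 and 5.80, and Ppfia1, a scaffold of cell adhesion sites, 9.16, 11.38, 11.52 and 9.65 against 8.76, 8.77, 9.00 and 9.05. For Fadd and Ppfia1 tumours 6 and 7 were the highest.

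Hoxa7, a patterning gene of hindbrain and spinal cord, measured 4.62, 5.49, 6.32 and 10.26 in tumours 3, 6, 7 and 10. In tumours 2, 5, 8 and 9 it measured 9.36, 11.25, 10.32 and 10.80, and in the controls at most 4.64. Tumour 10 was thus the Gpr17-high tumour with the Gpr17-low level, and without it the log2 difference moved from -3.76 to -4.95. Hoxd8 was 8.20, 8.17 and 8.38 in tumours 5, 8 and 9 and 4.48 in tumour 2, and detected in 1 of 4 Gpr17-high tumours. Ebf3, a transcription factor of immature neurons, was 9.70, 10.26 and 10.57 in tumours 5, 8 and 9, 5.70 in tumour 2 and between 5.69 and 7.22 in the Gpr17-high tumours. Ventral controls had Ebf3 at a mean of 10.03 and dorsal controls at 5.03. Nr2f2, a nuclear receptor of ventral and caudal brain, was 6.90, 6.33 and 6.79 in tumours 5, 8 and 9 and at most 5.00 in the other 5, with 6.95 in ventral and 4.43 in dorsal controls. Without tumour 2, Hoxd8 (-3.66 ± 0.28, adjusted p = 0.017), Ebf3 (-3.82 ± 0.39, 0.0332), Nr2f2 (-2.19 ± 0.26, 0.0458) and Glis1 (-2.13 ± 0.22, 0.0332) were among 9 genes that passed. For these named genes tumour 2 was the lowest Gpr17-low tumour, and the alike pairs again counted as separate tumours in the fit. Hoxd8 and Nr2f2 were each detected in 1 Gpr17-high tumour, so they were tested only through the Gpr17-low group, where they are high. The brain region of each tumour is not given, so its part in these differences was not tested. Hoxd8, Ebf3, Nr2f2 and Glis1 were named after their values were seen, and a second probe of Ebf3 gave -1.30. Of 7 Hox genes measured, 0 were apart, and the median was -0.33, with -0.47 with the pairs averaged and -0.48 without tumour 10, when Hoxa5 and Hoxa7 were apart lower. Among 8 forebrain genes, Gsx1 was apart higher and Meis2, a striatal and neural homeobox gene, lower (-0.73 ± 0.26), and among 8 midbrain and diencephalon genes 0 were apart.

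Lists of other cell types had few members apart. Of 17 neuronal genes, 1 was apart lower, Rbfox3, which encodes the neuronal nuclear protein NeuN. It measured 8.43, 6.99, 7.97 and 7.30 against 10.59, 8.58, 8.99 and 8.91 (-1.60 ± 0.48, SE), below the lowest control of 11.23 in every tumour. The median over neuronal genes was -0.40, with -0.70 with the pairs averaged and -0.01 without tumour 10. No gene was apart among 16 astrocyte, 13 neural stem and progenitor, 9 neuroblast and immature neuron, 12 microglia, 7 monocyte and macrophage, 14 antigen presentation, 13 interferon, 2 lymphocyte, 4 neutrophil, 13 endothelial, 16 matrix, 8 meningeal, 4 choroid plexus and ependymal or 4 blood genes. Without tumour 10, 3 of the 13 interferon genes, Isg15, Usp18 and Gbp3, were apart higher, and Cd3e of the lymphocyte genes was apart lower. Fabp7 of the neural stem and progenitor genes and Sp8 of the neuroblast genes were then apart higher too. These counts stand beside 5.66% higher and 4.95% lower of all genes. For interferon response the median was 0.63, with 0.39 with the pairs averaged and 0.95 without tumour 10. Usp18, a protease of the pathway, measured 10.23, 10.39, 11.50 and 9.08 against 9.47, 9.80, 8.11 and 8.36. For blood the median was 2.30 over 4 genes, with 1.09 with the pairs averaged and 3.44 without tumour 10, and the mean of the list relative to controls ranged from -5.14 to 2.08 in Gpr17-high and from -6.21 to -1.47 in Gpr17-low tumours. Hbb-bs, a haemoglobin chain, ranged from 6.96 to 14.25 in Gpr17-high and from 5.19 to 10.83 in Gpr17-low tumours. Igf2, a growth factor of meninges and vessels, measured 10.78, 14.51, 14.61 and 12.24 against 12.80, 8.53, 10.57 and 10.16. Of 6 pericyte and smooth muscle genes, Rgs5, a marker of pericytes, was apart higher (0.76 ± 0.24). Microglial genes relative to controls ranged from 0.11 to 2.10 in Gpr17-high and from -0.76 to 2.02 in Gpr17-low tumours, and meningeal genes from 0.18 to 2.02 and from -0.63 to 1.87. The part of these cells in the differences above was not tested.

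Among signalling and housekeeping lists, 3 of 12 ribosomal protein genes were apart lower, beside 3.01% of all genes, namely Rps4x (-0.37 ± 0.20), Rpl10a (-0.25 ± 0.16) and Rps14 (-0.23 ± 0.16). These differences are small enough that scaling matters, since 1 of the 12 was apart lower with median scaling and 5 without tumour 10. Their median was -0.09, with -0.08 with the pairs averaged and -0.15 without tumour 10. In oxidative phosphorylation 1 of 14 genes, Cox4i1, was apart lower (-0.44 ± 0.19), joined by Atp5a1 without tumour 10, and in hypoxia and glycolysis 1 of 10, Pdk1, a kinase that shuts pyruvate out of mitochondria (-1.10 ± 0.28). In the BMP and TGF-beta pathway Tgfb2, a ligand, was apart lower (-0.59 ± 0.25) and Smad6, an inhibitor, higher by 0.18 ± 0.16, of 15 genes. In cholesterol synthesis 1 of 9 was apart higher, Dhcr7, while Sqle and Cyp51 of the same pathway had 0.60 ± 0.27 and 0.64 ± 0.28. Without tumour 10 it was 3 of 9, with Fdps and Cyp51 beside Dhcr7, where 5.66% of all genes were apart higher. The median of 0.36 was 0.57 without tumour 10, or 0.29 with the pairs averaged. For the Notch, Wnt, Hedgehog and p53 lists, with 10, 11, 9 and 9 genes measured, 0 were apart, and their medians were -0.49, 0.10, -0.33 and -0.23. Without tumour 10, Sfrp1 of the Wnt list and Sesn2 of the p53 list were apart higher and Trp53inp1 of the p53 list lower. The receptor kinases of glioma had 0 of 11 apart, with Egfr at 5.86, 7.66, 7.11 and 7.46 against 9.10, 10.26, 7.29 and 6.62 (-1.29), and between -0.56 and -0.48 on 4 further probes. With median scaling Rbfox3, Prkacb, Meis2 and Smad6 overlapped between the groups, and Atp5a1 was apart lower. Over all 36 lists together, 382 genes were measured, of which 13 were apart higher and 9 lower. Both are smaller shares than those of all genes, 3.92% higher and 3.01% lower.

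**Figure D4:**
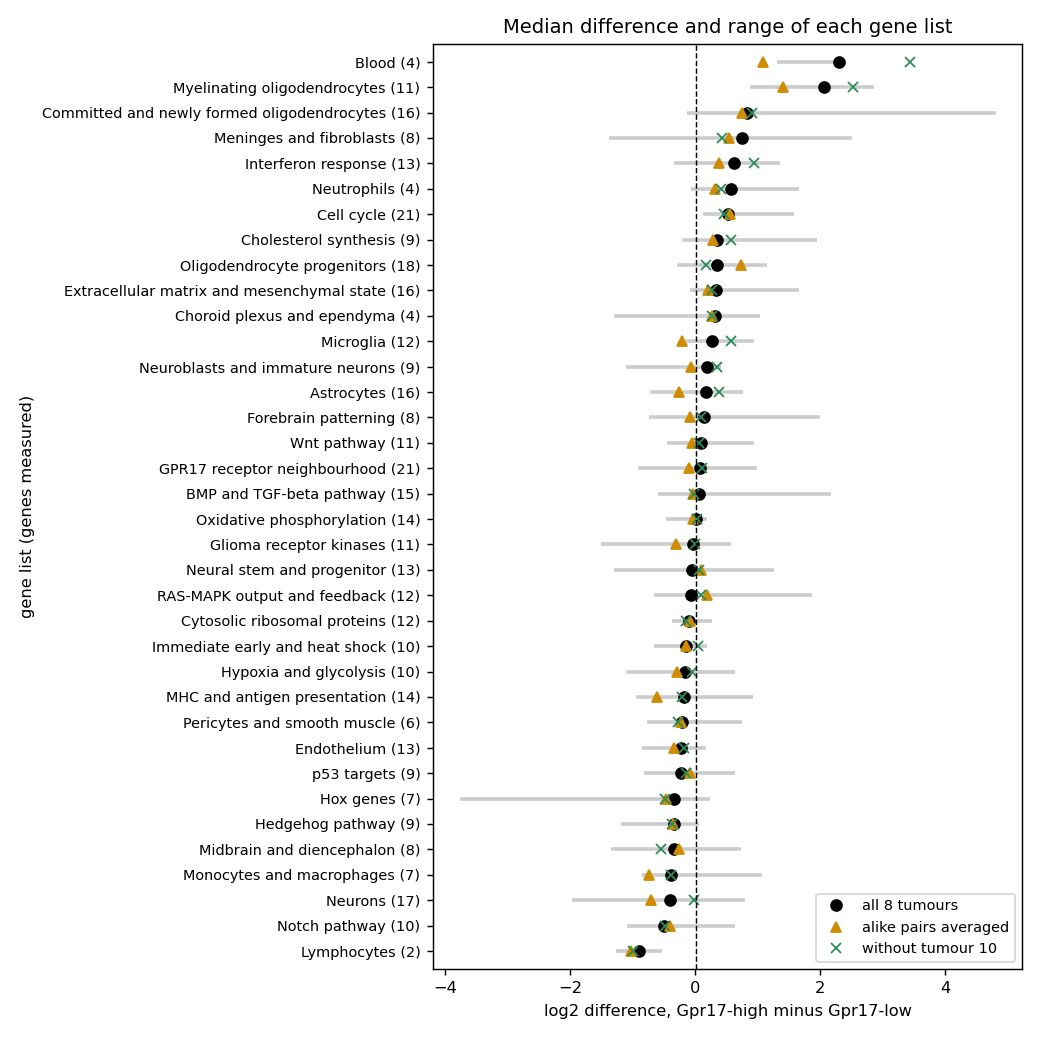
Median log2 difference, Gpr17-high minus Gpr17-low (horizontal axis), of each of 36 gene lists with the number of genes measured, over all 8 tumours (black), with the alike pairs averaged (orange) and without tumour 10 (green); grey bars are the range over genes and the dashed line is the median of all genes, 0.009. Blood and myelin genes have the highest medians, 2.30 and 2.07, both lower with the pairs averaged, and most lists lie near the line.

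Apart genes were spread unevenly over the chromosomes. On chromosome 11, 78 of 911 genes (8.56%) were apart higher and 11 (1.21%) lower, and on chromosome 16, 27 of 344 (7.85%) and 2 (0.581%). Chromosome 8 had the reverse, with 3 of 593 genes (0.506%) apart higher and 42 (7.08%) lower. Chromosomes 4 (7.10%), 9 (6.33%), 15 (6.25%) and 10 (5.96%) also had more genes apart higher than the 3.92% of all genes. On chromosomes X (6.36%), 3 (5.96%) and 1 (5.34%) more were apart lower than the 3.01% of all. With the pairs averaged, chromosome 11 had 13.8% apart higher and 2.09% lower beside 6.45% and 4.84% of all genes, and chromosome 8 had 1.35% and 11.1%. With median scaling the shares of chromosome 11 were 3.84% and 2.31% beside 1.94% and 4.67% of all, and chromosome 9 had 1.74% apart higher, under the share of all. These differences were carried by different tumours. The median deviation of chromosome 11 genes from their mean over the tumours was 0.19 in tumour 3 and 0.11 in tumour 10 and -0.25 in tumour 5. On chromosome 8 it was -0.38 in tumour 10 and 0.24 in tumour 5, and without tumour 10 the share apart higher was 2.87% and apart lower 7.76%. Chromosome 16 stood at -0.34 in tumour 5 and within 0.08 of 0 in the other 7. No test was run on these shares, genes of a chromosome are not independent, and DNA copy number was not measured. Cnp, Top2a and Aurkb, named above as apart higher, lie on chromosome 11, as do Rbfox3 and Pik3ip1, which were apart lower.

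**Figure D5:**
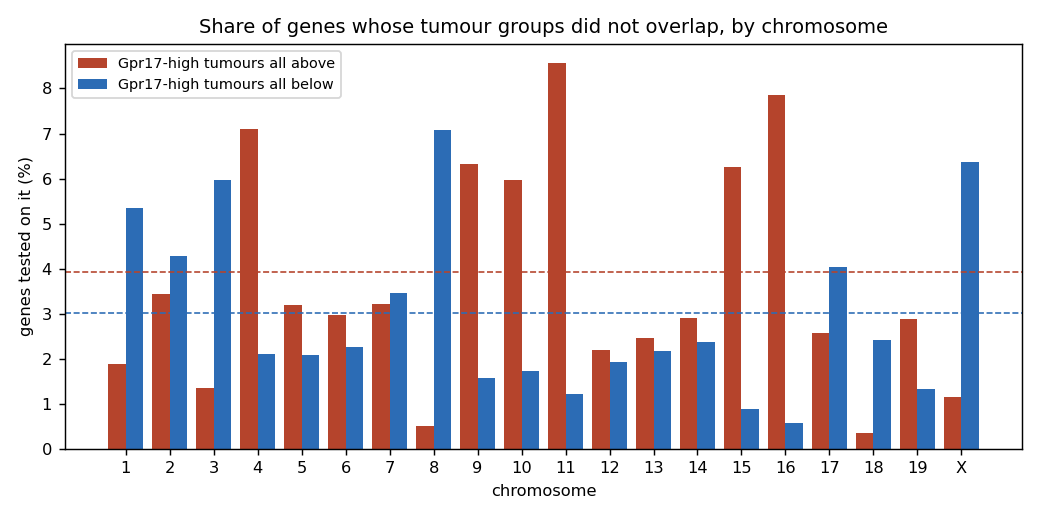
Share of the genes tested on each chromosome (vertical axis, percent) for which all Gpr17-high tumours lay above (red) or below (blue) all Gpr17-low tumours; dashed lines are the shares over all genes, 3.92% and 3.01%. Chromosome 11 has the tallest red bar at 8.56% and chromosome 8 the tallest blue bar at 7.08%.

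Each chip, as read from the array codes, held both kinds of tumour, so the differences could be read within chips. Chip 1 held tumours 8 and 9 and tumour 10, chip 2 tumours 2 and 3, and chip 3 tumour 5 and tumours 6 and 7. The leading genes were chosen for 1 sign in all 3 chips, so only the size is read here. Within the chips the log2 difference of Enpp6 was 2.71, 2.64 and 7.22, that of Plxnb3 3.95, 1.83 and 4.92, and that of Cnp 1.51, 2.10 and 3.13. Dedd2 differed by -1.69, -1.90 and -1.77, the narrowest spread of these genes. For myelin genes, which were not chosen in this way, Mbp had 0.69, -0.98 and 6.36 and Mog -0.08, -1.67 and 5.47. With chip as a block 0 genes passed.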

How the data were processed

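Total RNA of 8 tumours and 8 control tissues was hybridised to 1 Illumina bead array each. Per the file headers, 1 deposited table holds probe intensity for 45281 probes, neither normalized nor background-subtracted, with a detection p-value for each probe and array. The authors also deposited 38563 probes as log2 values, with no account of how these were made in the labels. The log2 values served for the Gpr17 split and as an alternative, and on each array their correlation with the normalized intensities was at least 0.999997.

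All other values were computed from the intensities with neqc in limma 3.58.1 (R 4.3.3), with an offset of 16. Probes detected at a p-value under 0.05 in at least 3 tumours were kept (16534), with 1 probe a gene, the one with the highest mean over the tumours, which left 10886 genes without Gpr17. Names came from the platform table through Entrez IDs. limma was fitted to the 8 tumours with Benjamini-Hochberg adjustment. Pairs 6 and 7, and 8 and 9, were also averaged before the fit. The members, the gene lists and the leading genes were chosen with earlier results of these data known. Beside the leading genes, the rule for names took the member with the smallest p of each list and any member of the progenitor, committed and receptor lists, and other genes were named after their values were seen. Errors are SE of the limma difference unless called SD. The number of arrays limits the precision. The procedure was run on simulated data with tumours drawn independently. Those data hold no alike pairs, so they do not show how the fit behaves with such pairs. The gene that drives the Cre recombinase is not reported here.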

Additional observations from a re-analysis of the deposited data

Results flagged for a closer look

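Single tumours stood far from the other 3 of their group for 9 of 193 group values looked at, and chance alone sets about 1 in 20 such groups apart. The pituitary genes among the 9 were chosen after their values were seen, so the count cannot be weighed against that rate. Tumour 10 was far above the other Gpr17-high tumours for the pituitary genes Pomc (13.98, others at most 5.53), Cga (10.48, others at most 4.33) and Ghrhr (7.30, others at most 4.38). Tumour 6 was far above them for Dhh (8.57, others at most 6.79). Tumour 3 was far below the other Gpr17-high tumours for the progenitor proteoglycan genes Cspg5 (9.84, others at least 10.86) and Vcan (4.81, others at least 6.54).

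In the Gpr17-low group, tumour 5 was far above the others for Itpr2 (12.18, others at most 9.93). Tumour 2 had a mean of meningeal and fibroblast genes relative to controls of 1.87 on the log2 scale, where the others had at most -0.38, and a mean of Hox genes of 1.45, where the others had at least 2.68.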

How the results depend on the processing

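The count of 0 genes past the threshold held with the pairs averaged, the pair as a random block (correlation 0.768), chip as a block, median scaling, normalization of the tumours alone, the authors' log2 values, detection in all 8 tumours, the mean of probes or each probe, and a robust variance trend. It became 2 without background correction (1 at 2-fold or more; Dedd2 and Ttc9b), 1 without a detection filter (1; Dedd2), 488 with all 16 arrays (223), 6 with Gpr17 as a covariate, and 3143 with array weights (1432), which ran from 0.28 to 6.03 and weighted tumour 8 most; why the weights raise the count was not tested. Leaving out 1 tumour gave 0 to 9 genes, also at 2-fold or more, with 9 without tumour 2 (Bace2, Col18a1, Dedd2, Hspb6 and Ccng2 beside those named above; Ccng2 was detected in 0 Gpr17-high and 3 Gpr17-low tumours and so was tested only through the latter) and 4 without tumour 3, and leaving out tumours 8 and 9 gave 1, Chst3 (1 at 2-fold or more). List members past the threshold numbered 17 with all 16 arrays, 98 with array weights and 0 to 1 without 1 tumour.

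Genes with an unadjusted p under 0.05 numbered 551 with the pairs averaged, 560 with the pair as a block, 2306 with all 16 arrays, 4639 with array weights, 707 to 1896 without 1 tumour, 814 without tumours 6 and 7 and 731 without tumours 8 and 9, beside 1332. The lowest came without tumour 8, and 818 without tumour 9. Genes apart higher and lower numbered 702 and 527 with the pairs averaged, 211 and 508 with median scaling, 1078 and 758 without tumours 6 and 7, 949 and 782 without tumours 8 and 9, and 458 to 937 and 369 to 961 without 1 tumour; fewer tumours part more easily. Leaving out tumours 2, 3, 5 or 10 moved 1 or both counts over 1.5 times, to 903 and 961, 683 and 509, 937 and 803, and 616 and 539. Of 160 named genes 39 turned their sign in 1 or more alternatives, with the differences within chips not counted. No gene passed in the fit to all 8 tumours, so a turned sign past the threshold in both could not occur. Leaving out a pair, and the counts of this paragraph, were added after the data were seen. No paired analysis was possible because the Gpr17-high and Gpr17-low tumours share no replicate number. Signals near background limit what can be read of low genes.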

Other observations

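Besides Hspb6, Psmd8 and Tbcb on chromosome 7 had lower signal in Gpr17-high tumours, and all 3 are named after their values were seen. On chromosome 7, 3.46% of genes were apart lower, beside 3.01% of all genes. Psmd8, a subunit of the proteasome, measured 5.96, 9.96, 9.38 and 9.63 in tumours 3, 6, 7 and 10, and 10.69, 10.54, 12.33 and 12.29 in tumours 2, 5, 8 and 9. Tbcb, a chaperone that folds tubulin, lay within 10.61 to 10.72 in the Gpr17-high tumours, and measured 10.80, 11.38, 13.08 and 13.20 in the Gpr17-low tumours. For both genes tumours 8 and 9 were the highest, as they were for Hspb6. In the order of the RefSeq annotation 17 protein-coding genes lie between Hspb6 and Tbcb, and 27 between Tbcb and Psmd8. The log2 differences were -2.73 for Psmd8 (limma adjusted p = 0.326) and -1.44 for Tbcb (0.366), so neither passed. A second probe of Psmd8, near background, gave -0.15 ± 0.21 (SE).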
